A study of Mus musculus with 12 samples.

Results

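The genes described here act at the end of mitosis, when a dividing cell builds a contractile ring, packs the spindle remnant into a midbody and cuts the last bridge between its daughters. The list has 41 members in 5 roles: 11 of the contractile ring and its RhoA signalling, 11 of the central spindle, chromosomal passenger complex and midbody, 13 of ESCRT and abscission, 4 GTPases or effectors of membrane traffic, and the 2 LATS kinases. A member was kept where a probe carrying its symbol had a detection p under 0.05 on at least 2 of 12 arrays. This left 28 of 41 members, among 8891 genes tested in all. The detection rule uses no difference between groups, but the list itself was drawn up with earlier results of these data known.

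The 12 Illumina arrays came from mouse embryonic fibroblasts (MEFs) of strain C57BL/6, labelled female, taken at embryonic day 13 (the decimal of the stage differs on every label) and immortalised with SV-40 large T. There were 6 groups of 2 arrays each: YYFF L0, YYFF L4 and YYFF L8, and WT L0, WT L4 and WT L8. YYFF cells carry the b1YYFF mutation of β1 integrin, which per the labels leaves them unable to divide into 2 cells on matrix specific to that integrin, while WT cells carry wild-type β1. Both were left overnight on laminin, such a matrix, in serum-free medium and then given normal medium, and the procedure was done 0 (L0), 4 (L4) or 8 (L8) times before growth on plastic. Each genotype is 1 clone, so genotype and clone cannot be told apart, and cells with more platings were also longer in culture.

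Cytokinesis starts when the guanine exchange factor Ect2, recruited by the central spindle, activates the GTPase RhoA, which switches on formins and so assembles actin and non-muscle myosin II into a ring. The ring closes onto the central spindle, which becomes the midbody. There Cep55 recruits ALIX (Pdcd6ip) and Tsg101, these recruit ESCRT-III subunits of the CHMP family, and the ATPase Vps4 and the microtubule-severing enzyme spastin complete the cut. Transcripts of many spindle and midbody genes peak in G2 and mitosis in cycling cells.

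The arrays had 40.4% to 45.8% of their 25697 probes above background. Of 11 fibroblast markers with a probe, 7 were above background on all 12 arrays, Col1a2 on 7 and Pdgfra on 10, while Thy1 and Fap were on 0. The summed signal of the 9 fibroblast markers that entered the test was 35409 to 41214 on YYFF arrays and 18577 to 26977 on WT arrays, without overlap, and its part in the differences between clones was not tested. No epithelial, endothelial, blood cell or skeletal muscle marker was above background on all 12 arrays. Of these lists, 3 of 6, 1 of 6, 1 of 4 and 1 of 5 markers with a probe were above it on some: Krt19 on 8 arrays, Krt8 on 5 and Cdh1 on 3, Tek on 4, Hbb-bt on 1 and Myog on 5. Among neural markers Sox2, Nes and Map2 were on 12, with Tubb3 and Gfap on 0, and the summed signal of those 3 was 760 to 2514 on YYFF arrays and 1017 to 1168 on WT arrays.

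Of the 13 members not tested, 7 had no probe under their symbol and were not analysed here: Rock2, Racgap1, Kif14, Aurkb, Chmp6, Zfyve26 and Lats1. The other 6 had probes that were above background on 0 of 12 arrays: Ect2, Cit, Rhoa, Kif20a, Chmp1a and Lats2. Their lowest detection p over the 12 arrays was 0.416 for Ect2, 0.439 for Cit, 0.551 for Rhoa, 0.257 for Kif20a, 0.0551 for Chmp1a and 0.208 for Lats2. No level can be read for these genes, whose products include the RhoA switch itself, and neither LATS kinase could be described. Of the 28 tested members, 27 were above background on all 12 arrays, and Vps4b, an ATPase of the abscission step, on 10.

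The difference between the highest and lowest array had a median of 0.82 on the log2 scale over the 28 members and of 1.04 over all 8891 genes, and it passed 1 in 28.6% of members and 53.1% of all genes. The median residual SD between replicate arrays was 0.11 for the members and 0.16 for all genes. All changes below are log2 differences from 1 limma fit over the 12 arrays, with ± giving the SE, n of 2 arrays per group, and p adjusted by Benjamini-Hochberg over the 8891 genes; a gene rose or fell where this p was under 0.05. Because bulk RNA was measured, a change in the share of cells that were dividing and a change in RNA per cell cannot be told apart.

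**Figure D1:**
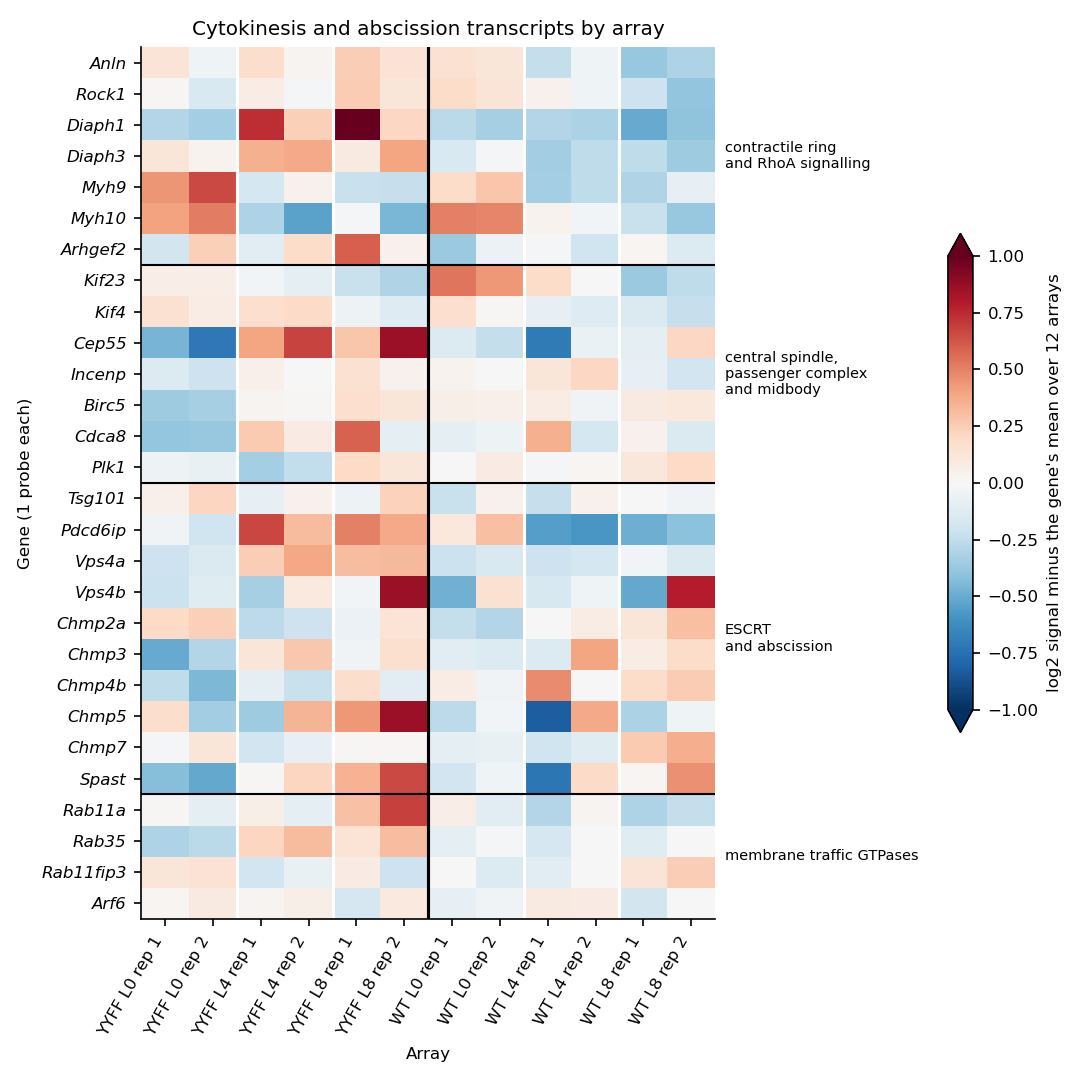
Normalized log2 signal of the 28 tested members (rows, grouped by role) on the 12 arrays (columns), each row minus its own mean over the 12 arrays; red is above and blue below that mean, and colours are cut at 1 and -1. Pdcd6ip is red on the YYFF L4 and L8 arrays and blue on the WT L4 and L8 arrays, while Myh10 is red on all L0 arrays.

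In YYFF cells 9 members changed at L4 compared with L0: 6 rose, beside 14.4% of all genes, and 3 fell, beside 17.2% (31.5% in all). At L8 compared with L0, 11 changed: 8 rose, beside 17.1% of all genes, and 3 fell, beside 19.3% (36.4% in all). In WT cells 0 members rose at L4, beside 7.49% of all genes, and 3 fell, beside 7.99% (15.5% in all). At L8 in WT cells 2 rose, beside 18.4%, and 6 fell, beside 17.7% (36.1% in all). Between YYFF L8 and L4 limma called 0 members, with 4 at an unadjusted p under 0.05, and 0.405% of all genes were called higher and 1.03% lower (1.44% in all). Between WT L8 and L4 it called 1 member higher, beside 10.8% of all genes, and 1 lower, beside 8.86% (19.6% in all).

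At L0, 1 member was higher in YYFF than in WT cells, beside 14.7% of all genes, and 2 were lower, beside 12.2% (27% in all). At L4, 6 were higher, beside 18.2%, and 1 lower, beside 19.7% (37.9% in all), and at L8, 7 were higher, beside 17.2%, and 1 lower, beside 19.8% (37% in all). The change since L0 was itself more positive in YYFF than in WT cells for 5 members at L4, beside 10.3%, and more negative for 1, beside 13.4% (23.7% in all). At L8 the same held for 8, beside 14.4%, and 2, beside 17.5% (31.8% in all), with a median difference in change of 0.39 over the 28 members and 0.03 over all genes and with 22 of 28 members above 0. By role, 4 of 7 ring genes, 1 of 7 spindle and midbody genes, 3 of 10 ESCRT genes and 0 of 4 traffic genes changed in WT L8 compared with WT L0 cells, beside 36.1% of all genes. Between YYFF L8 and WT L8 cells 4 of 7, 0 of 7, 3 of 10 and 1 of 4 differed in the same order of roles, beside 37% of all genes. The members' total shares were thus close to or below those of all genes in the 11 comparisons. Comparisons with the same L0 arrays share those arrays, as do the values at L4 and L8 set side by side below.

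**Figure D2:**
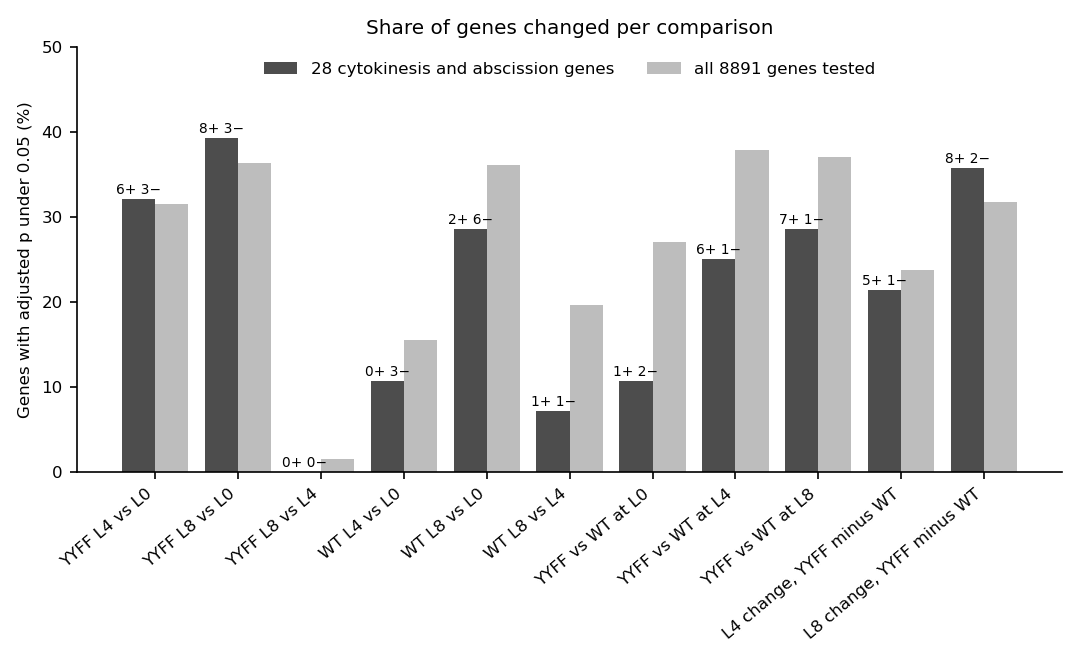
Share of the 28 members (dark bars) and of all 8891 genes (light bars) with an adjusted p under 0.05 in each of 11 comparisons, with the numbers of members higher (+) and lower (−) above the dark bars. The members' share is highest for YYFF L8 vs L0, where 11 members changed beside 36.4% of all genes.

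In the contractile ring, the listed heavy chain genes of non-muscle myosin II, Myh9 and Myh10, were lower after laminin in both clones. Myh9, the heavy chain of myosin IIA, had 12.57 and 12.79 at L0, 11.95 and 12.16 at L4 and 11.90 and 11.89 at L8 in YYFF cells, and 12.31 and 12.40, 11.79 and 11.87, and 11.83 and 12.04 at the same steps in WT cells (normalized log2 signal on each array). In each clone every L4 and L8 array lay below both L0 arrays. In YYFF cells Myh9 fell by 0.62 ± 0.12 (adjusted p 0.00483) at L4 and by 0.78 ± 0.12 (adjusted p 0.00121) at L8. In WT cells it fell by 0.53 ± 0.12 at L4 (adjusted p 0.0216) and 0.42 ± 0.12 at L8 (0.0267). The change did not differ between the clones past the threshold (L8 difference -0.36 ± 0.18, adjusted p 0.161).

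Myh10, the heavy chain of myosin IIB, had 8.86 and 8.97 at L0, 8.15 and 7.93 at L4 and 8.45 and 8.00 at L8 in YYFF cells, and 8.96 and 8.95, 8.50 and 8.43, and 8.24 and 8.08 in WT cells. Again no L4 or L8 array reached an L0 array of its clone. In YYFF cells it fell by 0.88 ± 0.15 (adjusted p 0.00215) at L4 and by 0.69 ± 0.15 (adjusted p 0.00671) at L8. In WT cells it fell by 0.79 ± 0.15 (adjusted p 0.00352) at L8, and the L4 change was -0.49 ± 0.15 (adjusted p 0.0617). These Myh10 calls, and those of Myh9 in YYFF cells, held with any 1 of the 12 arrays left out. The WT calls of Myh9 did not: at L4 it was lost without any of the 4 WT L0 and L4 arrays (adjusted p 0.0617 to 0.111), and at L8 without WT L0 replicate 1, WT L0 replicate 2 or WT L8 replicate 1 (0.0669 to 0.163). Fits of the compared arrays alone, with fewer samples, ended the WT calls of Myh9 (0.0785 at L4, 0.0582 at L8) and the YYFF L8 call of Myh10 (0.052).

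Anln and Rock1 parted between the clones after 8 platings. Anln encodes the scaffold that ties RhoA, actin and myosin together in the ring. Its probe had 13.15 and 12.98 at L0, 13.20 and 13.05 at L4 and 13.27 and 13.17 at L8 in YYFF cells, and 13.18 and 13.14, 12.79 and 12.98, and 12.64 and 12.72 in WT cells. Both WT L8 arrays lay below all 10 others. Anln was 0.54 ± 0.11 higher in YYFF L8 than in WT L8 cells (adjusted p 0.00504), a difference that held with any array left out. It fell by 0.48 ± 0.11 in WT L8 compared with WT L0 cells (adjusted p 0.00992), a call lost without WT L0 replicate 1 or WT L8 replicate 1 (0.0533 to 0.0617).

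Rock1, a kinase that RhoA activates and that raises myosin activity, had 8.52 and 8.35 at L0, 8.58 and 8.48 at L4 and 8.76 and 8.62 at L8 in YYFF cells, and 8.69 and 8.63, 8.54 and 8.46, and 8.29 and 8.11 in WT cells. The WT L8 pair was the lowest of the 12. It was 0.49 ± 0.11 higher in YYFF L8 than in WT L8 cells (adjusted p 0.00745), lost without WT L8 replicate 2 (0.0625) and with the compared arrays alone (0.0624). In WT cells Rock1 fell by 0.46 ± 0.11 at L8 (adjusted p 0.011), lost without WT L0 replicate 1 or WT L8 replicate 2 (0.0617 to 0.0856). The L8 change was thus 0.71 ± 0.16 higher in YYFF than in WT cells (adjusted p 0.0079), and this difference held with every array left out.

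The formins, which build the ring's unbranched actin filaments under RhoA, were both higher in YYFF than in WT cells at L8. Diaph3 had 9.78 and 9.70 at L0, 10.02 and 10.04 at L4 and 9.75 and 10.06 at L8 in YYFF cells, and 9.52 and 9.66, 9.32 and 9.41, and 9.41 and 9.31 in WT cells. Every YYFF array was above every WT array. Diaph3 was 0.67 ± 0.12 higher in YYFF than in WT cells at L4 (adjusted p 0.00225) and 0.54 ± 0.12 higher at L8 (adjusted p 0.00684), both held with any array left out, though the L8 call was lost with the compared arrays alone (0.0656); at L0 the difference was 0.16 ± 0.12 (adjusted p 0.383).

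Diaph1 was the most variable ring gene, with a spread of 2.07 over the 12 arrays. It had 6.49 and 6.45 at L0, 7.52 and 7.03 at L4 and 8.36 and 6.99 at L8 in YYFF cells, and 6.51 and 6.46, 6.50 and 6.47, and 6.28 and 6.39 in WT cells. All 4 YYFF L4 and L8 arrays stood above the other 8, but the L8 pair lay far apart. It rose by 1.20 ± 0.35 in YYFF L8 compared with YYFF L0 cells (adjusted p 0.0264) and was 1.34 ± 0.35 higher in YYFF L8 than in WT L8 cells (adjusted p 0.0161). The call within YYFF was lost without YYFF L0 replicate 1, YYFF L0 replicate 2 or YYFF L8 replicate 1 (0.0655 to 0.101), and the call between clones without WT L8 replicate 1 or 2 (0.0577 to 0.0741); the compared arrays alone gave 0.11 and 0.098. Arhgef2, a microtubule-bound activator of RhoA, passed the threshold in none of the 11 comparisons, with 7.13 to 8.10 over the arrays.

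**Figure D3:**
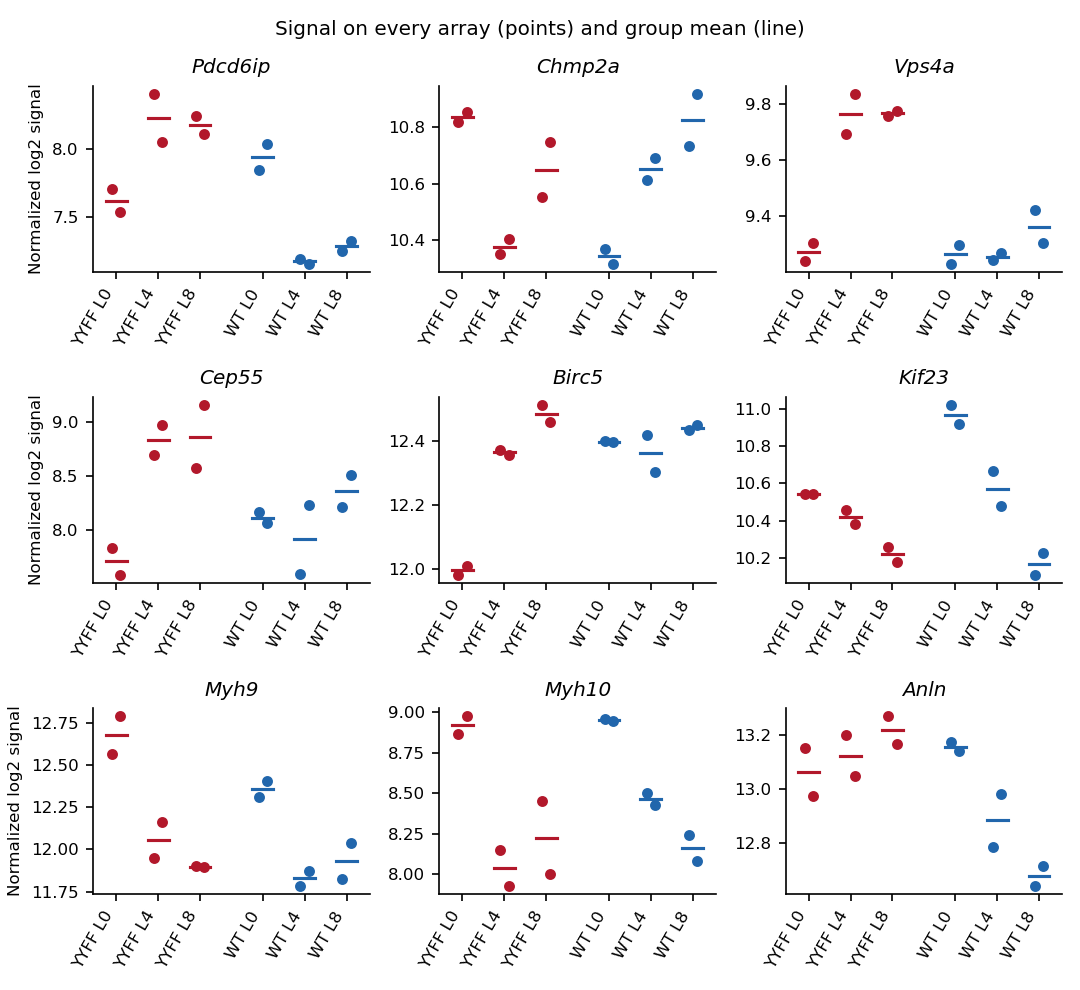
Normalized log2 signal on each array (points) and group mean (line) for 9 members, with YYFF groups left in red and WT groups right in blue; the vertical scales differ and do not start at 0. Pdcd6ip shows 4 high YYFF and 4 low WT arrays after laminin, with the L0 arrays of both clones between them.

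Central spindle and midbody genes are shown with their promoters, because 7 of the 8 genes of this role that matched a RefSeq promoter window hold the letters TTTGAA there. TTTGAA is the core of the cell cycle genes homology region, through which the DREAM and MYB-MuvB complexes time expression to G2 and mitosis, and CCAAT is a box bound by NF-Y. Both strands were searched in windows from 250 bases before to 50 after each start site (GRCm38.p6). TTTGAA was in 8 of 9 windows of this role (88.9%) and in 17.9% of all 32851 windows, and CCAAT in 66.7% and 37.4%. The variant TTCGAA, its own reverse complement, was in 0 of the 9 and in 1.56% of all. TTTGAA was in 3 of 14 windows of ring genes, 2 of 12 of ESCRT genes and 69% of the 29 windows matched to genes of earlier mitosis. The window of Birc5 held none of these letters. Below, 280 bases up to 30 past the start site are printed 5′ to 3′ on the gene's strand, with TTTGAA and CCAAT or their reverse complements TTCAAA and ATTGG in capitals, for Kif23 (chr9:61946770-61947049, minus strand), Cdca8 (chr4:124936888-124937167, minus strand) and Cep55 (chr19:38054791-38055070, plus strand; the later of its 2 windows).
Kif23: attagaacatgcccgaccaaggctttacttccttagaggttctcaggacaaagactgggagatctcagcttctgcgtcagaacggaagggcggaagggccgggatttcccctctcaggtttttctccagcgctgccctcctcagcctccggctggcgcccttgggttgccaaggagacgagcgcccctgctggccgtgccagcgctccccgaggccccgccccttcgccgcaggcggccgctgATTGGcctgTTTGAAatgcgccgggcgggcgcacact
Cdca8: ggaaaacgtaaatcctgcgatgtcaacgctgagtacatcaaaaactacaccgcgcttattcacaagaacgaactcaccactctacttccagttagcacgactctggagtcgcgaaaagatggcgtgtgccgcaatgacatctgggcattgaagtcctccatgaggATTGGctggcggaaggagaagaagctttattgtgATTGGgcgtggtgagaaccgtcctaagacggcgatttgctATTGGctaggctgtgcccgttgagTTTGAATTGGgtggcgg
Cep55: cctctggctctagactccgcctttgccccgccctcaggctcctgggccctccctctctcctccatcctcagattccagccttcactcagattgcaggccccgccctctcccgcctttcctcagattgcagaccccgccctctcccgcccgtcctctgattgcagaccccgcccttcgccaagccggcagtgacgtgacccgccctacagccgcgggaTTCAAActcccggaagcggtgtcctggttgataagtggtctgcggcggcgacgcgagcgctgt
TTTGAA starts at position 3 after the start site in Kif23 and 14 in Cdca8, where it overlaps an ATTGG, and TTCAAA starts at -33 in Cep55. A match describes these letters and is not evidence of binding.

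Genes sharing these letters did not share a direction. Kif23, the kinesin of the centralspindlin complex, fell in both clones: it had 10.55 and 10.55 at L0, 10.46 and 10.38 at L4 and 10.26 and 10.18 at L8 in YYFF cells, and 11.02 and 10.92, 10.67 and 10.48, and 10.11 and 10.23 in WT cells. In each clone the order of the steps was L0, L4, L8 from high to low, with no overlap between steps. WT cells started higher, and at L8 the clones overlapped. Kif23 fell by 0.80 ± 0.10 in WT L8 compared with WT L0 cells (adjusted p 0.000438), which held with any array left out, and by 0.32 ± 0.10 in YYFF L8 compared with YYFF L0 cells (adjusted p 0.0366), which was lost without any of 8 arrays (up to 0.124, without YYFF L0 replicate 1), with median scaling (0.244) and with the compared arrays alone (0.117).

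The intermediate steps of Kif23 in WT cells also passed, by -0.39 ± 0.10 at L4 compared with L0 (adjusted p 0.0334) and -0.40 ± 0.10 at L8 compared with L4 (adjusted p 0.026). The L4 call was lost without any of 7 arrays (up to 0.165, without WT L0 replicate 1) and the L8 call without WT L4 replicate 1, WT L8 replicate 1 or WT L8 replicate 2 (0.0693 to 0.147). Median scaling ended both (0.0859 and 0.0872), as did the compared arrays alone (0.161 and 0.121). At L0 Kif23 was lower in YYFF than in WT cells by -0.42 ± 0.10 (adjusted p 0.016), lost without YYFF L0 replicate 1, YYFF L0 replicate 2 or WT L0 replicate 1 (0.0727 to 0.097).

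Cep55, the midbody protein that brings in the abscission machinery, rose in YYFF cells. It had 7.83 and 7.58 at L0, 8.70 and 8.97 at L4 and 8.58 and 9.16 at L8 in YYFF cells, and 8.16 and 8.06, 7.59 and 8.24, and 8.21 and 8.51 in WT cells. The 4 YYFF arrays after laminin were above all 8 others. Cep55 rose by 1.13 ± 0.25 in YYFF L4 (adjusted p 0.00789) and by 1.16 ± 0.25 in YYFF L8 (adjusted p 0.00608) compared with YYFF L0 cells, while the WT changes were -0.20 ± 0.25 and 0.25 ± 0.25 (adjusted p 0.661 and 0.49). The L8 call held with any array left out and the L4 call was lost without YYFF L0 replicate 2 or YYFF L4 replicate 2 (0.0568 to 0.0599). At L4 Cep55 was 0.92 ± 0.25 higher in YYFF than in WT cells (adjusted p 0.0175), lost without YYFF L4 replicate 2 or WT L4 replicate 1 (0.105 to 0.112). At L8 neither the difference between the clones (0.51) nor the difference in change since L0 (0.91) passed the threshold for Cep55.

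Of the chromosomal passenger complex, which guides spindle midzone and abscission timing, Birc5 (survivin) rose in YYFF cells. It had 11.98 and 12.01 at L0, 12.37 and 12.36 at L4 and 12.51 and 12.46 at L8 in YYFF cells, and 12.40 and 12.39, 12.42 and 12.30, and 12.43 and 12.45 in WT cells. Only the 2 YYFF L0 arrays stood apart, below the other 10. Birc5 was lower in YYFF than in WT cells at L0 by -0.40 ± 0.09 (adjusted p 0.00927; 0.0563 without YYFF L0 replicate 1). In YYFF cells it rose by 0.37 ± 0.09 (adjusted p 0.0114) at L4 and by 0.49 ± 0.09 (adjusted p 0.00232) at L8; the L8 call held with any array left out, and the L4 call was lost without YYFF L0 replicate 1, YYFF L4 replicate 1 or YYFF L4 replicate 2 (0.0576 to 0.065).

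The other passenger subunits did not pass within a clone. Incenp, the scaffold, had the smallest spread of this role: 9.71 and 9.64 at L0, 9.89 and 9.85 at L4 and 9.99 and 9.88 at L8 in YYFF cells, and 9.88 and 9.83, 9.96 and 10.05, and 9.76 and 9.65 in WT cells. Its YYFF L8 change of 0.27 ± 0.09 had an adjusted p of 0.0548. Cdca8 (borealin) changed by 0.63 ± 0.23 at L8 in YYFF cells (adjusted p 0.0609), with arrays at 10.31 and 9.63 against 9.34 and 9.34 at L0. Plk1, a kinase that licenses RhoA activation at the midzone, was lower in YYFF than in WT cells at L4 by -0.29 ± 0.09 (adjusted p 0.0336), and Kif4, a chromokinesin that sets midzone length, was higher by 0.28 ± 0.10 (adjusted p 0.045). The Plk1 call was lost without any of 6 arrays (up to 0.171, without YYFF L4 replicate 1) and the Kif4 call without any of 8 (up to 0.158, without YYFF L4 replicate 2). Over the 12 arrays Plk1 ranged from 10.95 to 11.49 and Kif4 from 9.95 to 10.37. Median scaling ended both calls (0.122 and 0.11), as did the compared arrays alone (0.115 and 0.113), and Kif4 was also lost with every probe fitted (0.0607) and with the mean of its probes (0.236).

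**Figure D4:**
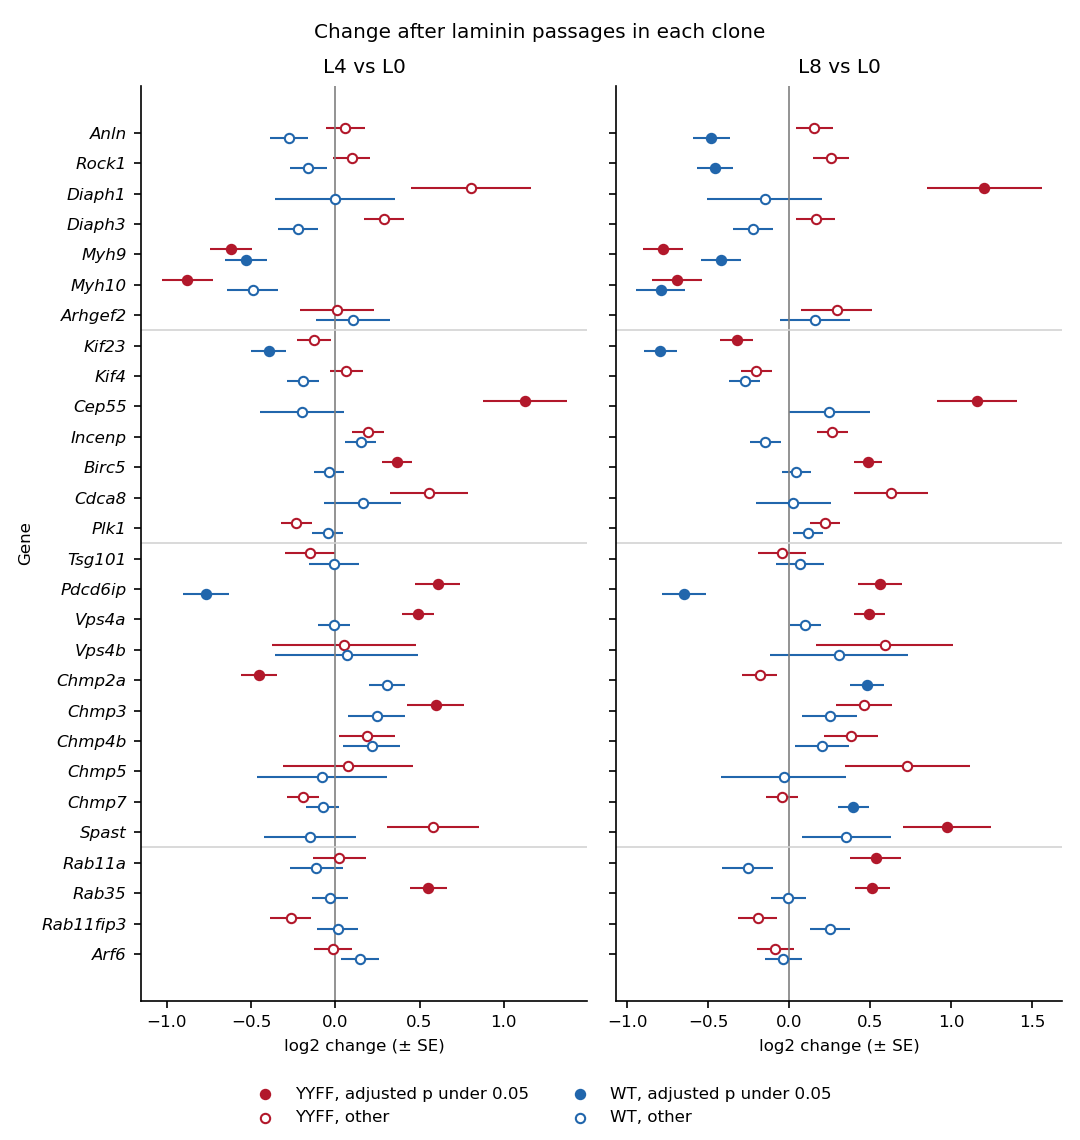
log2 change since L0 (horizontal axis, ± SE) of the 28 members at L4 (left) and L8 (right), with YYFF in red above WT in blue for each gene and filled points where the adjusted p was under 0.05. Pdcd6ip has filled points on opposite sides of 0, at 0.56 in YYFF and -0.65 in WT cells at L8, whereas Myh9 and Myh10 are below 0 in both.

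Among ESCRT and abscission genes, Pdcd6ip moved in opposite directions in the clones. It encodes ALIX, the adaptor that links Cep55 to ESCRT-III. Its RefSeq window (chr9:113708230-113708509, minus strand, GRCm38.p6), printed as above because this gene carried the largest difference between the clones among the 28 members at L4, holds 1 TTTGAA at -134 and no CCAAT.
Pdcd6ip: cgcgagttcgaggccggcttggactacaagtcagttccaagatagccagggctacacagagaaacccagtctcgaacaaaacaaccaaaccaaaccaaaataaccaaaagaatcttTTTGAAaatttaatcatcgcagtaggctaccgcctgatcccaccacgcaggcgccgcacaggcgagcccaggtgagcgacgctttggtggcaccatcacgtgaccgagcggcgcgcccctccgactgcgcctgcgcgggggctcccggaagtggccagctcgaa
Pdcd6ip had 7.70 and 7.53 at L0, 8.40 and 8.05 at L4 and 8.24 and 8.11 at L8 in YYFF cells, and 7.84 and 8.03, 7.19 and 7.16, and 7.25 and 7.33 in WT cells. After laminin all 4 YYFF arrays were above all 4 L0 arrays, and all 4 WT arrays were below them. It rose in YYFF cells by 0.61 ± 0.14 (adjusted p 0.00851) at L4 and by 0.56 ± 0.14 (adjusted p 0.0112) at L8, and in WT cells it fell by 0.77 ± 0.14 (adjusted p 0.0061) and 0.65 ± 0.14 (adjusted p 0.00554).

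YYFF cells thus had 1.05 ± 0.14 more Pdcd6ip than WT cells at L4 (adjusted p 0.000318) and 0.89 ± 0.14 more at L8 (adjusted p 0.000871), while at L0 the difference was -0.32 ± 0.14 (adjusted p 0.12). The difference between the clones' changes was 1.37 ± 0.19 (adjusted p 0.000939) at L4 and 1.21 ± 0.19 (adjusted p 0.00154) at L8. The WT calls, the differences at L4 and L8 and the differences in change all held with any array left out. The YYFF calls were lost at L4 if YYFF L4 replicate 1 or YYFF L0 replicate 2 was left out (0.0635 to 0.0659) and at L8 if YYFF L8 replicate 1 or YYFF L0 replicate 2 was (0.0553 to 0.0781).

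Vps4a, the ATPase that takes ESCRT-III filaments apart, rose in YYFF cells and passed in none of the WT comparisons. It had 9.24 and 9.30 at L0, 9.69 and 9.83 at L4 and 9.76 and 9.77 at L8 in YYFF cells, and 9.23 and 9.30, 9.24 and 9.27, and 9.42 and 9.30 in WT cells. The 4 YYFF arrays after laminin were above all others. It rose by 0.49 ± 0.10 at both L4 (adjusted p 0.00406) and L8 (adjusted p 0.00346) in YYFF cells and was higher in YYFF than in WT cells by 0.51 ± 0.10 (adjusted p 0.0028) at L4 and 0.40 ± 0.10 at L8 (adjusted p 0.00939; 0.0719 without WT L8 replicate 2, 0.076 with the compared arrays alone). All of these calls but the last held with any array left out.

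Chmp2a, an ESCRT-III subunit that caps the filament and recruits Vps4, went the other way. It had 10.81 and 10.85 at L0, 10.35 and 10.40 at L4 and 10.55 and 10.75 at L8 in YYFF cells, and 10.37 and 10.32, 10.61 and 10.69, and 10.73 and 10.91 in WT cells. In YYFF cells L0 was the highest step, and in WT cells it was the lowest. Chmp2a fell by 0.45 ± 0.11 in YYFF L4 cells (adjusted p 0.0106), rose by 0.48 ± 0.11 in WT L8 cells (adjusted p 0.00746) and was 0.49 ± 0.11 higher in YYFF than in WT cells at L0 (adjusted p 0.00927). The difference between the clones' changes was -0.76 ± 0.15 (adjusted p 0.00619) at L4 and -0.66 ± 0.15 (adjusted p 0.00967) at L8; both held with any array left out. The YYFF L4 call was lost without YYFF L0 replicate 2 or YYFF L4 replicate 1 (0.0589 to 0.0635), the WT L8 call without WT L8 replicate 2 (0.0638) or with the mean of probes (0.0545), and the L0 call without YYFF L0 replicate 2 or WT L0 replicate 2 (0.0532 to 0.0561).

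Other ESCRT members moved singly. Chmp3, another ESCRT-III subunit, rose by 0.60 ± 0.17 in YYFF L4 cells (adjusted p 0.0262), lost without YYFF L0 replicate 1, YYFF L4 replicate 1 or YYFF L4 replicate 2 (0.063 to 0.151). Spast, the severing enzyme spastin, had 9.10 and 9.41 in YYFF L8 cells against 8.33 and 8.24 in YYFF L0 cells and rose by 0.97 ± 0.27 (adjusted p 0.0209), lost without YYFF L0 replicate 1, YYFF L0 replicate 2 or YYFF L8 replicate 2 (0.0729 to 0.106). In WT cells the means at L0, L4 and L8 were 8.79, 9.03 and 9.03 for Chmp3 and 8.64, 8.49 and 8.99 for Spast. By these probes neither gene passed within WT cells, between the clones or for the difference in change. Chmp7, an ESCRT-III relative that also acts in resealing the nuclear envelope, was highest in WT L8 cells, with 10.86 and 10.97. It rose there by 0.40 ± 0.10 compared with WT L0 (adjusted p 0.0117) and by 0.47 ± 0.10 compared with WT L4 (adjusted p 0.00962), and YYFF L8 cells were below WT L8 cells by -0.30 ± 0.10 (adjusted p 0.0369). These were lost without WT L0 replicate 1 or WT L8 replicate 2 (0.0569 to 0.0832), without WT L4 replicate 1 or WT L8 replicate 2 (0.0518 to 0.0758), and without any of 8 arrays (up to 0.185, without WT L8 replicate 2). With the compared arrays alone the rise since L4 had 0.0695 and the difference between clones 0.143, and this difference was also lost with median scaling (0.0554), every probe fitted (0.0501) and the mean of probes (0.88).

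Of the remaining ESCRT members, Tsg101, the ESCRT-I subunit that Cep55 recruits beside ALIX, had the smallest spread. It had 9.33 and 9.50 at L0, 9.20 and 9.33 at L4 and 9.23 and 9.51 at L8 in YYFF cells, and 9.06 and 9.33, 9.05 and 9.33, and 9.28 and 9.25 in WT cells, with L8 overlapping L0 in both clones. Its L8 change was -0.04 ± 0.15 in YYFF and 0.07 ± 0.15 in WT cells. Chmp5 had the largest spread of this role, 1.68, with the WT L4 replicates far apart: 7.67 and 7.14 at L0, 7.13 and 7.83 at L4 and 7.92 and 8.35 at L8 in YYFF cells, and 7.23 and 7.46, 6.67 and 7.87, and 7.17 and 7.45 in WT cells. Over the 12 arrays Chmp3 ranged from 8.40 to 9.30, Chmp4b, the ESCRT-III subunit that builds the filament, from 11.13 to 12.06, and Vps4b from 5.46 to 6.84, near background. Chmp5, Vps4b, Chmp4b and Tsg101 passed the threshold in none of the 11 comparisons.

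In membrane traffic, which delivers vesicles and clears actin at the bridge, Rab35 rose in YYFF cells. It had 11.65 and 11.69 at L0, 12.17 and 12.27 at L4 and 12.09 and 12.27 at L8 in YYFF cells, and 11.87 and 11.94, 11.79 and 11.96, and 11.83 and 11.96 in WT cells. The 2 YYFF L0 arrays were the lowest of the 12 and the 4 later YYFF arrays the highest. Rab35 rose by 0.55 ± 0.11 (adjusted p 0.00435) at L4 and by 0.51 ± 0.11 (adjusted p 0.00568) at L8, both held with any array left out, while the WT changes were -0.03 ± 0.11 and -0.01 ± 0.11. It was 0.35 ± 0.11 higher in YYFF than in WT cells at L4 (adjusted p 0.0311), lost without YYFF L4 replicate 1, YYFF L4 replicate 2 or WT L4 replicate 1 (0.0711 to 0.156) and with the compared arrays alone (0.094).

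Rab11a, a GTPase of recycling endosomes, differed at L8. It had 7.96 and 7.84 at L0, 8.00 and 7.84 at L4 and 8.24 and 8.63 at L8 in YYFF cells, and 8.01 and 7.84, 7.65 and 7.97, and 7.63 and 7.70 in WT cells. The YYFF L8 arrays were the 2 highest and the WT L8 arrays were among the 3 lowest. Rab11a was 0.77 ± 0.16 higher in YYFF L8 than in WT L8 cells (adjusted p 0.00459), held with any array left out. It rose by 0.53 ± 0.16 in YYFF L8 compared with YYFF L0 cells (adjusted p 0.0263), lost without YYFF L0 replicate 1, YYFF L0 replicate 2 or YYFF L8 replicate 2 (0.0696 to 0.149) and with the compared arrays alone (0.0828). Arf6, a GTPase of membrane and actin traffic, had the smallest spread of all 28 members, with 10.65 and 10.72 at L0, 10.66 and 10.68 at L4 and 10.46 and 10.73 at L8 in YYFF cells, and 10.55 and 10.59, 10.72 and 10.71, and 10.45 and 10.63 in WT cells. Neither Arf6 nor Rab11fip3, an effector that binds both Rab11 and Arf6, passed the threshold in any comparison.

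The series concerns aneuploidy, in which whole chromosomes or parts of them change copy number. Each member was therefore set beside the 10 tested genes on either side of it in RefSeq gene order. This description was added after the members' changes were known. Cep55 on chromosome 19 and Birc5 on chromosome 11 lay among genes that also rose in YYFF cells. The 20 neighbours of Cep55 had a median change of 0.64 in YYFF L8 compared with YYFF L0 cells. Of them 12 were higher and 3 lower, beside 17.1% and 19.3% of all genes. In WT L8 compared with WT L0 cells their median was -0.13. The 20 neighbours of Birc5 had medians of 0.41 and 0.16 in the same comparisons, in that order. In YYFF cells Cep55 changed by 1.16 and Birc5 by 0.49.

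Incenp on chromosome 19 changed by 0.27 in YYFF L8 compared with YYFF L0 cells, beside a neighbour median of 0.29, and Cdca8 on chromosome 4 by 0.63, beside 0.19. For Chmp7 on chromosome 14 the WT L8 change was 0.40 beside a neighbour median of 0.17. Of its neighbours 8 were higher and 1 lower, beside 18.4% and 17.7% of all genes. The difference in change at L8 was -0.44 beside -0.53. Here 1 neighbour was higher and 9 were lower, beside 14.4% and 17.5% of all genes.

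For some members, changed or not, the neighbours' median was near 0 or of the other sign. Around Pdcd6ip on chromosome 9, 0 neighbours were higher and 5 lower in YYFF L8 cells, beside 17.1% and 19.3% of all genes. The YYFF L8 median there was -0.31, beside the gene's own 0.56. Around Myh9 on chromosome 15 it was -0.04, around Vps4a on chromosome 8 0.00 and around Kif23 on chromosome 9 0.06 in WT L8 cells. Diaph3 on chromosome 14 lay among genes with a median of -0.43 in YYFF L8 cells and itself changed by 0.16. Around Rab35 on chromosome 5 the median had the gene's own sign, at 0.27 beside the gene's 0.51 in YYFF L8 cells. Neighbour values of other called members, among them Chmp2a, Rock1, Myh10, Anln and Rab11a, are not given. No copy number was measured here.

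For 7 tested members more than 1 probe was above background, and these gave a second reading of the same gene. In a fit of every probe, the 3 probes of Birc5 changed by 0.49, 0.44 and 0.34 in YYFF L8 compared with YYFF L0 cells (adjusted p 0.00389, 0.0214 and 0.0544), and both probes of Anln fell in WT L8 cells, by 0.48 and 0.84. The dimmer Anln probe did not pass in the other comparisons in which the brightest did, at 0.42 between YYFF L8 and WT L8 cells (adjusted p 0.224) and 0.85 for the difference in change at L8 (adjusted p 0.096). It rose in YYFF L4 cells by 0.74 (adjusted p 0.0483), where the brightest changed by 0.06 (adjusted p 0.753). The 3 probes of Chmp2a all fell in YYFF L4 cells, by 0.45, 0.60 and 0.59. In WT L8 cells, however, they changed by 0.48, 0.28 and 0.11, and of these the brightest alone passed, so the Chmp2a rise in WT cells rests on 1 probe, as do its difference in change at L8 (-0.66, -0.19 and -0.49) and its difference between YYFF and WT cells at L0 (0.49, 0.27 and 0.38). Spast had 0.97, 0.56 and 0.54 in YYFF L8 cells, with 2 of the 3 past the threshold. One of these, not the brightest, also passed where Spast is not called above, at 0.59 in YYFF L4 compared with YYFF L0 cells (adjusted p 0.00563), 0.65 between YYFF L4 and WT L4 cells (adjusted p 0.0028), 0.58 in WT L8 compared with WT L4 cells (adjusted p 0.0115) and 0.91 for the difference in change at L4 (adjusted p 0.00542). The probes of Chmp7 disagreed, at -0.04, 0.02 and 0.76 in YYFF L8 cells. In WT L8 cells, at 0.40, 0.27 and 0.49, the brightest alone passed. The probes of Kif4 also disagreed in sign in YYFF L8 compared with YYFF L0 cells. They had -0.20, 0.24 and 0.44 there, none past the threshold. In YYFF L8 compared with YYFF L0 cells the brightest Chmp4b probe was not called (0.38, adjusted p 0.116). The other Chmp4b probe was called there (0.65, adjusted p 0.0189).

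**Figure D5:**
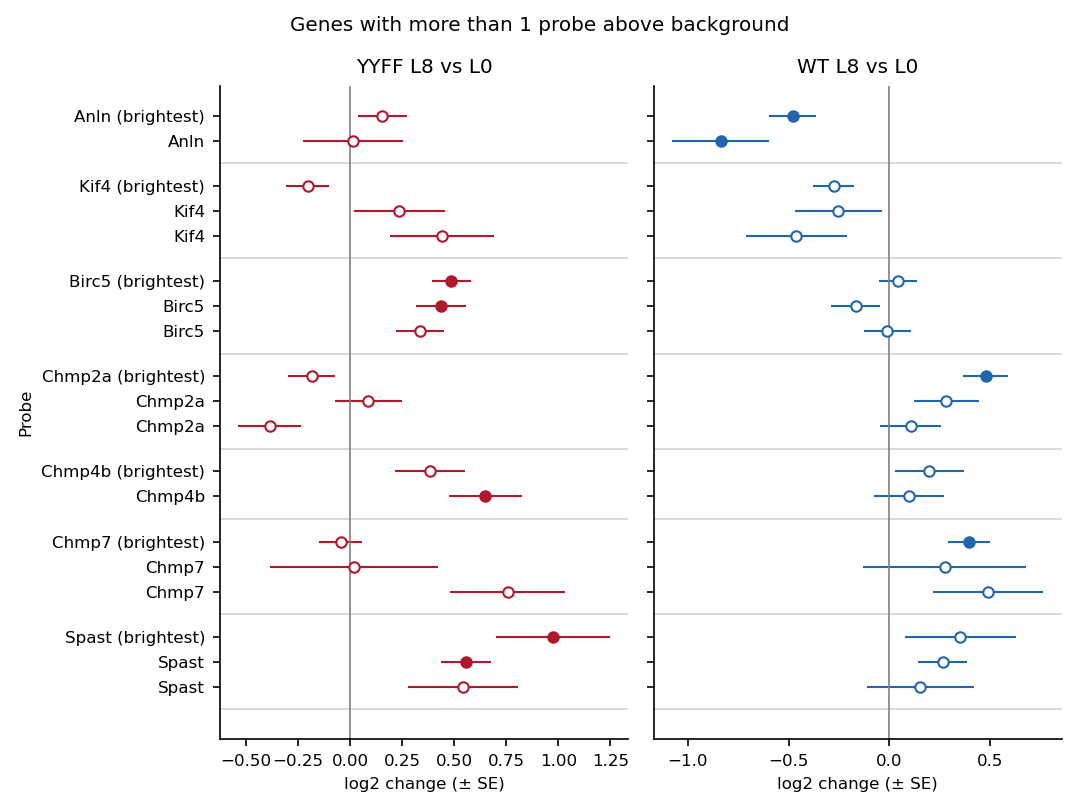
log2 change (horizontal axis, ± SE) of every probe above background for the 7 members with several, in YYFF L8 vs L0 (left) and WT L8 vs L0 (right); filled points had an adjusted p under 0.05 in the fit of every probe. The 3 Birc5 probes lie at 0.34 to 0.49 on the YYFF side, while those of Chmp7 spread from -0.04 to 0.76.

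Other cytokinesis genes, 35 tested of a list of 47, had 11 changed in YYFF L8 compared with YYFF L0 cells (31.4%, beside 36.4% of all genes; 9 rose, 2 fell) and 12 in WT L8 compared with WT L0 cells (34.3%, beside 36.1%; 6 rose, 6 fell). Rhob, a close relative of RhoA best known for endosomal traffic, had the largest difference in change between the clones on this list: it rose in YYFF cells by 1.29 ± 0.12 (adjusted p 5.54e-05) at L4 and by 1.45 ± 0.12 (adjusted p 2.21e-05) at L8 and fell in WT cells by 1.82 ± 0.12 (adjusted p 2.25e-05) and 1.34 ± 0.12 (adjusted p 5.55e-05). YYFF cells already had 0.95 ± 0.12 more at L0. In YYFF L8 cells Stx2, a membrane fusion protein of the midbody, rose by 1.05 ± 0.16 and the septin Septin6 by 0.93 ± 0.19, while Exoc4 and Exoc2, subunits of the exocyst that tethers vesicles at the bridge, changed by -1.63 ± 0.13 and -0.43 ± 0.10. In WT L8 cells Septin9 rose by 1.11 ± 0.12 and the fusion protein gene Vamp8 by 0.91 ± 0.12. Cfl1, the actin-severing protein cofilin, changed there by -0.64 ± 0.18 but rose by 0.70 ± 0.18 in YYFF L8 cells. Stx2 also rose in WT L8 cells, by 0.64 ± 0.16, and Exoc4 changed there by -0.50 ± 0.13. At L0 Exoc4 was 1.30 ± 0.13 higher in YYFF than in WT cells. Cfl1 and Septin6 were lower in YYFF than in WT cells at L0, at -0.90 ± 0.18 and -0.89 ± 0.19 (adjusted p 0.00579 and 0.00786). Neither Cfl1 nor Septin6 differed between the clones past the threshold at L8.

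Of 23 tested genes of earlier mitosis, such as those of the spindle checkpoint and kinetochore, 6 rose in YYFF L8 compared with YYFF L0 cells. This was 26.1%, beside 17.1% of all genes that rose. In the other direction 0 fell, beside 19.3% of all genes (36.4% in all). The median change was 0.27, beside 0.03 over all genes. The largest rises were 0.74 ± 0.20 for Kif11, 0.68 ± 0.12 for Mad2l1 and 0.50 ± 0.10 for Cenpa. At L0, 0 were higher in YYFF than in WT cells, beside 14.7% of all genes. Lower were 6 (26.1%), beside 12.2% of all genes (27% in all), the lowest being Bub1b at -0.55 ± 0.12. At L4, 5 were lower (21.7%), beside 19.7%, and 0 higher, beside 18.2% (37.9% in all). At L8, 6 were lower (26.1%), beside 19.8%, and 0 higher, beside 17.2% (37% in all). The lowest at L8 was Kif22 at -0.99 ± 0.09. The change at L8 was more negative in YYFF than in WT cells for 3, beside 17.5%, and more positive for 0, beside 14.4% (31.8% in all). In WT L8 compared with WT L0 cells 5 rose (21.7%), beside 18.4% of all genes, and 0 fell, beside 17.7% (36.1% in all). Of 33 DNA replication genes, 4 rose and 2 fell in YYFF L8 compared with YYFF L0 cells (18.2%, beside 36.4% of all genes) and 2 rose and 3 fell in WT L8 compared with WT L0 cells (15.2%, beside 36.1%).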

How the data were processed

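Total RNA of 12 samples (100 ng each, labelled with biotin) was read on 12 Illumina arrays. The deposited non-normalized table gives, per the file headers, an intensity per probe and array and a detection p-value, both made by the authors before deposit; background subtraction and scaling are not stated in the sources used here. The authors' processed intensities served as an alternative; their columns share 1 distribution, as after quantile normalization, except that of WT L0 replicate 2, which equals its non-normalized signal and was used as it stands. The submitters' processing notes name limma, with no version or role. All 12 columns were matched to samples through their labels.

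Intensities were background-corrected by normexp (offset 16, controls inferred from the detection p-values), quantile-normalized and put on the log2 scale with limma 3.58.1 in R 4.3.3. Probes with detection p under 0.05 on at least 2 arrays were kept (12974 of 25697). The platform annotation names 23978 probes with 1 symbol, 0 with several and 1719 with none; names were updated through RefSeq (GRCm38.p6) by Entrez ID for 23962 and by accession for 9, and 7 kept theirs. The probe with the highest mean stood for a gene (8891 genes). One coefficient per group (6 residual degrees of freedom, 2.91 prior, median residual SD 0.161) gave 11 contrasts, with eBayes, adjustment over those 8891 genes (Benjamini-Hochberg) and 0.05 as threshold. The procedure was tested on simulated data. The number of arrays limits the precision.

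Replicate numbers come from the titles; they match those of the descriptions in 3 of 6 groups. The labels do not tie replicates to separate cultures; the p-values then reflect the spread of these samples alone, possibly a technical one. The members and lists were chosen with earlier results of these data known. All members were accounted for; per comparison those past the threshold were named, with the most and least variable of each role and, for other lists, up to 3 genes per direction. RefSeq promoter windows matched 33 members, 23 of them tested. Alternatives were another scaling, no background correction, the authors' values, detection on all arrays, every probe, the mean of probes, only the arrays compared, a replicate block and each array left out.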

Additional observations from a re-analysis of the deposited data

Results flagged for a closer look

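For 12 genes the change since L0 differed between YYFF and WT cells by limma's test of the difference itself, giving 16 differences on the log2 scale (YYFF change minus WT change, ± SE). None was weighed further here.

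At L4 the difference was 1.33 ± 0.35 for Cep55, 0.40 ± 0.12 for Birc5, 1.37 ± 0.19 for Pdcd6ip, 0.50 ± 0.14 for Vps4a, -0.76 ± 0.15 for Chmp2a and 0.58 ± 0.15 for Rab35, with adjusted p from 0.000939 to 0.0443. Those of Pdcd6ip and Chmp2a held with any array left out. That of Cep55 was lost without any of 5 arrays (adjusted p up to 0.0862, without YYFF L4 replicate 2), Rab35 of 5 (up to 0.0862), Vps4a of 7 (up to 0.103) and Birc5 of 9 (up to 0.12). Birc5 was also lost with the authors' values, every probe, the mean of probes and the compared arrays alone (0.0503 to 0.0667).

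At L8 it was 0.64 ± 0.16 for Anln, 0.71 ± 0.16 for Rock1, 0.47 ± 0.15 for Kif23, 0.41 ± 0.13 for Incenp, 0.44 ± 0.12 for Birc5, 1.21 ± 0.19 for Pdcd6ip, -0.66 ± 0.15 for Chmp2a, -0.44 ± 0.14 for Chmp7, 0.79 ± 0.22 for Rab11a and 0.52 ± 0.15 for Rab35, with adjusted p from 0.00154 to 0.0435. Rock1, Pdcd6ip and Chmp2a held with any array left out. Anln was lost without YYFF L0 replicate 2 or WT L8 replicate 1 (0.0555 to 0.061), Birc5, Rab11a and Rab35 without any of 6 arrays each (up to 0.0721, 0.0822 and 0.103), Kif23 and Chmp7 of 9 each (up to 0.119 and 0.123) and Incenp of 11 (up to 0.138). Median scaling and the compared arrays alone ended Kif23 (0.0528 and 0.0533), Incenp (0.0687 and 0.0787) and Chmp7 (0.131 and 0.0647). Incenp was also lost with the authors' values (0.0502) and every probe (0.0586), and Chmp7 with every probe (0.0507) and the mean of probes (0.591).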

How the results depend on the processing

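Of the 67 calls of members over the 11 comparisons, 24 held under every alternative run and 0 reversed; 26 held with each array left out. The calls kept were 67 with no background correction, with detection on all 12 arrays and with a replicate block, 65 with the authors' values, 62 with every probe fitted and with the mean of probes, 58 with median scaling and 46 with the compared arrays alone, a fit with fewer samples. Each called member's probe was already above background on all 12 arrays, so the filter on detection left those probes and their values unchanged. Counts of members called moved by over 1.5 times as follows. With the compared arrays alone there were 7 in YYFF L8 vs L0 (11 in the fit reported), 1 in WT L4 vs L0 (3), 0 in WT L8 vs L4 (2) and 4 in YYFF vs WT at L8 (8). WT L8 vs L4 had 1 with median scaling and 4 with the replicate block. YYFF L8 vs L4 had 1 with no background correction, with the authors' values, with detection on all 12 arrays and with the block, against 0. With 1 array left out, a lone sample being assumed to vary like the other groups, counts ran from 5 to 11 in YYFF L4 vs L0, 6 to 14 in YYFF L8 vs L0, 0 to 1 in YYFF L8 vs L4, 1 to 4 in WT L4 vs L0, 4 to 9 in WT L8 vs L0 and 0 to 3 in WT L8 vs L4. They ran from 1 to 3, 3 to 9 and 4 to 9 for YYFF vs WT at L0, L4 and L8, and from 2 to 8 and 3 to 10 for the differences in change at L4 and L8. The cause was not tested. Deviations of same-numbered arrays correlated by 0.02 to 0.35 over 15 pairs of groups and were over 0.1 in 13. Some shared structure by number is thus possible, but pairing was taken as given only if every pair of groups passed 0.1, and the title numbers used match the descriptions in 3 of 6 groups. The replicate block kept all 67 calls. Signals near background limit Vps4b.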
